A study of Arabidopsis thaliana with 24 samples.

Results

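The regions described here are strong start sites of transcription that run antisense to protein-coding genes of Arabidopsis thaliana. Start sites were mapped by CAGE, in which capped RNA molecules are captured and tags are read from their 5′ ends, and neighbouring tags on a strand were grouped into clusters by the authors. Members were chosen by their measured tag count and their position: a count of 25 or more, and a peak inside an annotated protein-coding gene (the host) on the opposite strand. Peaks inside a gene of their own strand, or up to 500 bp upstream of the start of one, were not taken. This rule held for 2265 of 317183 deposited clusters, with 773 in the Shigu-2 set, 526 in Kly-1, 502 in Altenb-2 and 464 in Vash-1. Of these, 4 clusters with 303 tags lay within 5000 bp of rRNA genes and were set aside, and the other 2261 clusters, joined across sets where they overlapped by 1 bp, made 1032 loci in 813 host genes. Just inside the threshold, 477 antisense clusters held 25 to 29 tags, and just outside it 711 held 20 to 24. Antisense clusters of any listed count numbered 20360.

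Material was the aerial part of 2-week-old wild-type seedlings of 4 natural accessions, named Shigu-2, Kly-1, Altenb-2 and Vash-1. The labels describe 24 libraries in 8 groups of 3, each accession at 22 °C and 40 µE or after 24 h of cold at 4 °C with light of 140 µE. The deposited table holds 4 pooled sets without any column that separates libraries, replicates or treatments, and a set carries an accession's name here only because the initial of its cluster identifiers matches. Each locus therefore has 1 value per set, differences between sets have no replicate check and no p-value, and accession cannot be told apart from treatment. Levels are CPM, the tags of a locus scaled to all tags outside the rRNA repeats. Such tags numbered 22462179 for Altenb-2 and 29311532 for Kly-1, with 37230794 for Shigu-2 and 24535666 for Vash-1. The threshold of 25 tags corresponds to 1.11, 0.853, 0.671 and 1.02 CPM in this order, and values given below without set names follow it. A locus with no cluster in a set is called unlisted there and has at most 4 tags, because the smallest listed count is 5. The leaf genes RBCS1A (16940 to 19999 CPM) and LHCB1.1 (4683 to 8493 CPM) were high in every set, and the root transporter genes PHT1;1 (1.47 to 3.06 CPM) and NRT2.1 (0 to 0.326 CPM) were low.

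Antisense transcripts are read from the opposite strand to a gene's messenger RNA and run against it. They can start at a promoter of their own within or beyond the gene's 3′ end, and in Arabidopsis the antisense transcripts of the flowering repressor FLC and of the seed dormancy gene DOG1 are known to take part in setting the level of the sense transcript. RNA polymerase II usually starts on a purine preceded by a pyrimidine, the core of the initiator element, and a part of promoters carry a TATA box a short way upstream that positions the start. CAGE tags are also found within transcripts, away from promoters, so the bases around a peak are a useful description of it.

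To show what was read at individual antisense starts, the bases around the peak of 10 loci are printed from the TAIR10.1 reference, from 45 bp before the peak to 10 bp after it, 5′ to 3′ on the antisense strand. Capitals mark the base before the peak and the peak itself and, where present, TATAAA or TATATA starting 40 to 25 bp before the peak. The first 5 come from loci of high or even level and the next 3 from loci of large range between sets. The last 2 are from CESA4 and AT4G24410, whose loci were taken from coding or intron loci with that motif, and are shown to illustrate it. No window overlaps an annotated untranslated region.

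PDX1.1, chr2:16012331-16012386, minus strand, coding sequence of the host: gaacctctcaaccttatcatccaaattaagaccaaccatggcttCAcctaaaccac
AT4G03940, chr4:1874682-1874737, minus strand, intron: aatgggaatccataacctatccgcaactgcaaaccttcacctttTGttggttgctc
AT1G61850, chr1:22856483-22856538, minus strand, coding sequence: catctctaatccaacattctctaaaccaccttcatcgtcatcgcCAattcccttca
LECRKA4.3, chr5:218171-218226, plus strand, coding sequence: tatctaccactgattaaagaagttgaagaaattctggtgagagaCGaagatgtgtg
AT1G34110, chr1:12418372-12418427, plus strand, coding sequence: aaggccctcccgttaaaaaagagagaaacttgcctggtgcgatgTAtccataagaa
dNK, chr1:27114154-27114209, plus strand, coding sequence: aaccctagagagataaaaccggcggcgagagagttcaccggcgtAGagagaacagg
AT2G42490, chr2:17692974-17693029, plus strand, coding sequence: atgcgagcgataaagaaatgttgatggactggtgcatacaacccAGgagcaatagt
AT3G25240, chr3:9192702-9192757, minus strand, coding sequence: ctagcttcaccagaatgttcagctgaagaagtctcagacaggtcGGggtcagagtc
CESA4, chr5:17717666-17717721, minus strand, coding sequence: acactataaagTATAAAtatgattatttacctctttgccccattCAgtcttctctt
AT4G24410, chr4:12623491-12623546, plus strand, coding sequence: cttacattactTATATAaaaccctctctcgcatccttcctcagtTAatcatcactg

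The first 5 loci and both TATA examples start on a purine after a pyrimidine (CA, TG, CG or TA), and the 3 printed loci of large range start on AG or GG. Those 3 are not typical of their group, since 6 of the 10 loci of largest range start on a purine after a pyrimidine.

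Most antisense loci were weak, and a small number carried much of the signal. The mean level over the 4 sets had a median of 0.913 CPM and ran from 0.175 to 102.6 CPM; 553 loci lay under 1 CPM and 24 at 10 CPM or more (14 of them under 20 CPM and 10 at 20 CPM or more). The 15 highest loci held 23.2% of the summed mean level and the 100 highest held 50.4%. Member clusters made up 0.177% of the tags in Altenb-2 and 0.202% in Kly-1, with 0.193% in Shigu-2 and 0.159% in Vash-1. In Kly-1, 11897 of the 59190 member tags came from 1 cluster, at dNK. A host carried 1 locus in 640 genes, 2 in 137, 3 in 28, 4 in 6 and 5 in 2. The hosts with 5 loci were the cytochrome P450 gene CYP81H1, whose antisense peaks spanned 2229 bp, and the nitrate transporter gene NRT2.7, whose peaks spanned 1166 bp. Loci were spread over the 5 chromosomes at 7.71 to 9.63 per Mb.

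**Figure D1:**
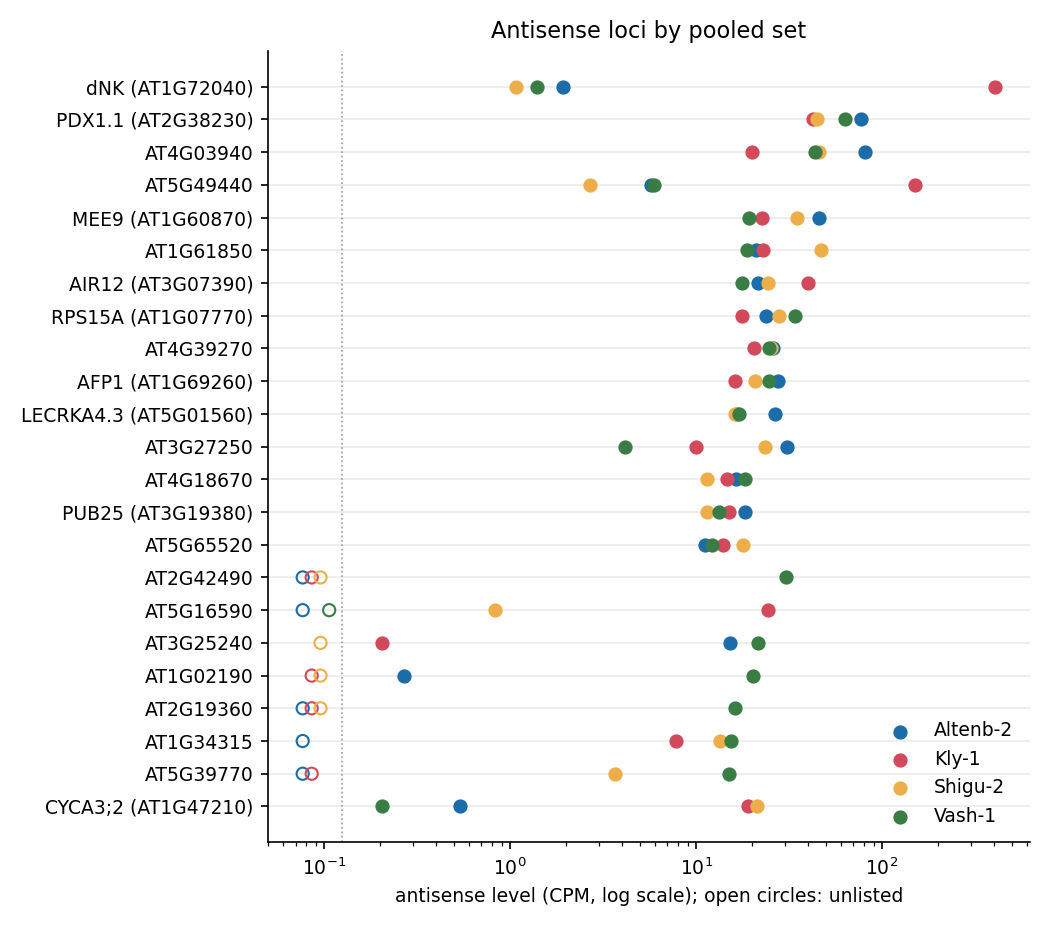
Antisense level in CPM (log axis) of the 15 loci of highest mean, followed by the loci of largest range not already among them, with 1 point per pooled set. Open circles left of the dotted line mark sets in which the locus is unlisted. PDX1.1 and most high loci keep their 4 points close together, while dNK has 1 point at 406 CPM and 3 points under 2 CPM.

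Among the highest loci, several were high in all 4 sets and exceeded the host's own transcript. PDX1.1, which encodes a subunit of the enzyme that makes vitamin B6, carried 77.3 CPM antisense in Altenb-2 and 42.3 in Kly-1, with 44.8 in Shigu-2 and 63.5 in Vash-1. All 4 sets were high and the highest was 1.58 times the pooled value of the others (95% interval from counting error 1.49 to 1.67). The locus peaked 174 bp before the annotated end of the host. On the sense strand PDX1.1 had no listed tags between 500 bp upstream of its start and its start codon, and 8.01, 7.34, 9.75 and 12.8 CPM over the whole gene in the same order of sets. The antisense level was thus above the sense level of the whole gene in every set.

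The intron of AT4G03940, a gene of uncharacterized product, carried 81.0 CPM in Altenb-2 and 20.03 in Kly-1, with 45.8 in Shigu-2 and 43.4 in Vash-1, and its whole-gene sense level was at most 0.645 CPM in any set. LECRKA4.3, a lectin receptor kinase gene, carried 26.7, 16.6, 16.2 and 17.0 CPM antisense in its coding sequence, against a mean of 0.130 CPM over the whole gene on the sense strand. AT4G39270, a leucine-rich repeat kinase gene, carried 26.0, 20.6, 25.4 and 24.7 CPM antisense, 284 bp before its end, against a mean of 2.57 CPM sense. These loci were high in all 4 sets, in genes that were low on their own strand. RPS15A, which encodes a protein of the small ribosomal subunit, carried 23.8, 17.7, 27.8 and 33.8 CPM antisense in its 3′ untranslated region, together with 3 weaker antisense loci within 181 bp.

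Others were high beside a transcribed host. MEE9, a gene named for arrest of the embryo through a maternal effect, carried 45.8 CPM antisense in Altenb-2 and 22.5 in Kly-1, with 34.7 in Shigu-2 and 19.3 in Vash-1, and a whole-gene sense level of 23.1 to 28.2 CPM. PUB25, a U-box ubiquitin ligase gene, carried 18.4, 14.9, 11.4 and 13.2 CPM antisense and 9.35 to 20.6 CPM sense. The leucine-rich repeat gene AT4G18670 carried 16.3, 14.7, 11.5 and 18.4 CPM antisense in its 3′ untranslated region, against 78.3 to 119.1 CPM sense over the whole gene. Antisense was the weaker strand at AT4G18670 in every set. AIR12, a gene first found as auxin-induced in root cultures, had 21.5, 39.9, 24.4 and 17.6 CPM antisense in its 3′ untranslated region and 117.7 to 319.5 CPM sense over the whole gene, of which a mean of only 1.99 CPM fell at its annotated start.

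Antisense starts were concentrated toward the 3′ end of the host. With each host cut into 10 equal parts from start to end, the last 4 parts held 736 of 1032 loci (71.3%, 95% Wilson interval 68.5 to 74.0) on 40.1% of the length that could be searched under the rule, and the first 6 parts held 296 (28.7%) on 59.9%. Part 9 alone held 257 loci and part 1 held 34. Loci lay a median of 394 bp from the annotated host end, and 608 (58.9%) within 500 bp of it, against 68 (6.59%) within 500 bp of the host start. These intervals count loci of 1 table and do not cover differences between libraries, and neighbouring loci of 1 gene are not independent.

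By part of the gene, the coding sequence held 561 loci, 54.4% (51.3 to 57.4) against 52.5% of the searched length, a difference of 1.85 points (−1.20 to 4.86). With a minimum of 10 tags it was 5.95 points (4.36 to 7.53), which excludes 0. The 3′ untranslated regions held 306 loci, 29.7% (26.9 to 32.5) against 9.78% of the length, which is 3.03 times their share (2.76 to 3.32). Introns held 116 loci, 11.2% (9.46 to 13.3) against 28.7% of the length, and 5′ untranslated regions held 29, 2.81% against 7.51%. The remaining 20 lay in untranslated exon stretches inside the coding span. Relative to length, antisense starts were thus most frequent in 3′ untranslated regions and least in introns and 5′ untranslated regions. Of all loci, 117 (11.3%) lay within 500 bp past the end of a gene on their own strand.

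**Figure D2:**
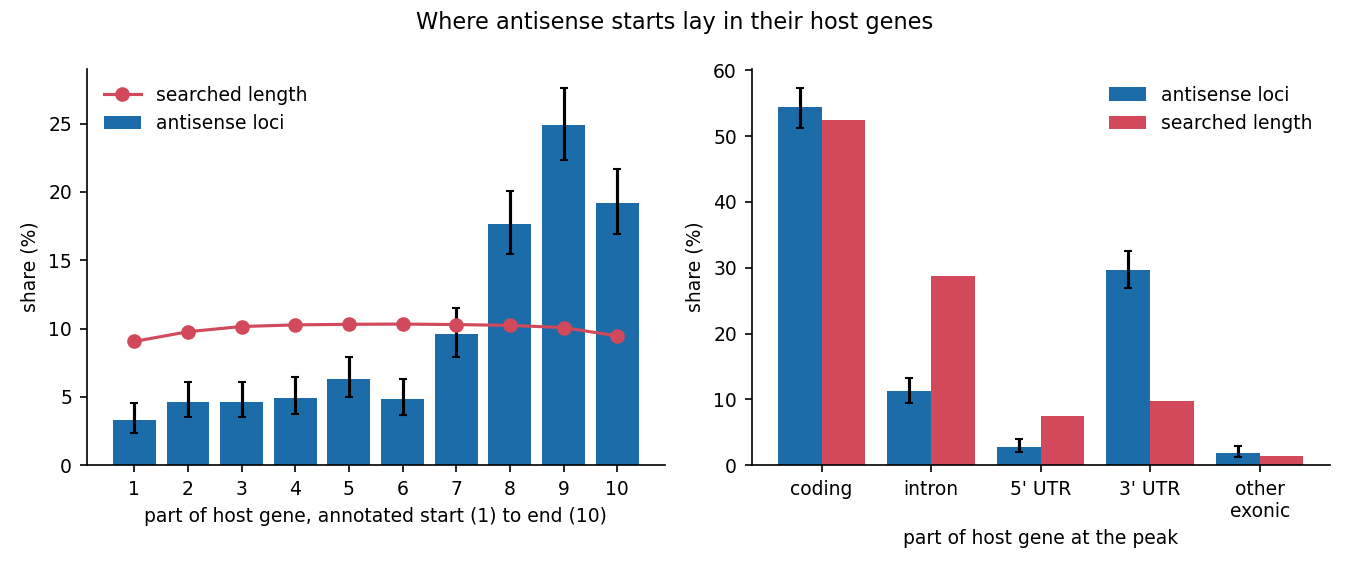
Left, the share of antisense loci (bars, 95% Wilson intervals) in each of 10 equal parts of the host gene from annotated start (1) to end (10), with the share of searched length (line). Right, the share of loci and of searched length by part of the host at the peak. Parts 8 to 10 stand above the line, and the 3′ untranslated region holds 29.7% of loci on 9.78% of the length.

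The bases at the peak were compared with those of gene starts and of start sites on the sense strand inside coding sequence, all loci of 25 tags or more. A pyrimidine before a purine stood at the peak in 844 of 1032 antisense loci (81.8%, 79.3 to 84.0). Gene starts were 24485 loci of all annotated genes, from 500 bp upstream to the start codon, or to 200 bp inside genes without coding sequence. At these loci it was 89.3%, so antisense loci differed from gene starts by −7.48 percentage points (Newcombe 95% interval −9.98 to −5.21). At sense coding loci (4459) it was 55.6%, and antisense loci were 26.1 points higher (23.3 to 28.8). With a minimum of 10 tags these differences were −19.3 and 23.7 points, and for loci wider than 5 bp −3.41 and 30.3 points. The interval against gene starts included 0 where the highest cluster held 50 to 99 tags (−7.31 to 1.45) and 200 or more (−13.96 to 0.727). The single steps did not all follow this order. GG stood at 2.62% of antisense, 0.637% of gene-start and 26.4% of sense coding peaks, and CA at 24.2%, 27.5% and 11.8%. TG stood at 27.6% of antisense and 27.3% of gene-start peaks, against 21.9% of sense coding peaks. CG was lowest at antisense peaks (11.6%, against 13.6% and 14.7%), and AG was highest there (9.79%, against 2.95% and 6.93%). Where the highest cluster held 200 tags or more, 84.8% of antisense and 76.5% of sense coding loci had the pyrimidine-purine step, and the interval of that difference (−0.906 to 14.96 points) included 0.

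A TATA motif, TATAAA or TATATA on the antisense strand starting 40 to 25 bp before the peak, was present in 121 antisense loci (11.7%, 9.90 to 13.8). In a control window 100 bp farther upstream it was present in 2.91%, and it was present near the peak in 20.7% of gene-start and 6.17% of sense coding loci. Antisense loci differed from gene starts by −8.96 points (−10.9 to −6.80) and were 5.56 points over sense coding loci (3.59 to 7.77). The latter difference did not hold for the strongest loci. At 200 tags or more the share was 13.0% antisense and 15.7% sense coding, a difference of −2.698 points (−8.77 to 6.02). Of the 121 matches, 70 (57.9%) started 34 to 30 bp before the peak, and the most frequent start was at −33. A match is a description of the letters in this window.

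**Figure D3:**
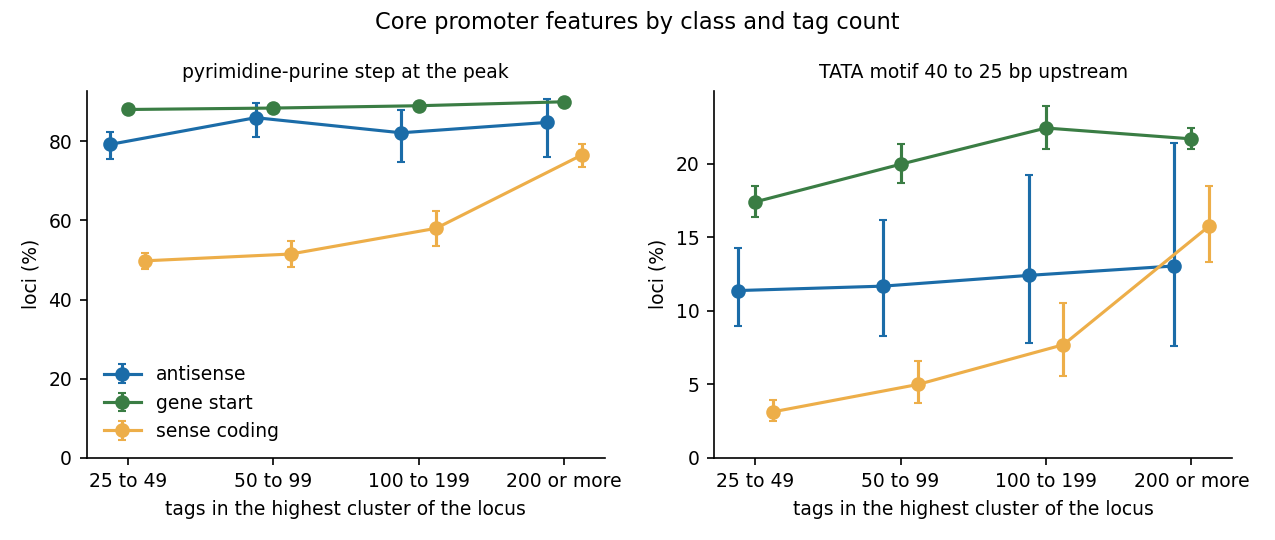
Share of loci with a pyrimidine-purine step at the peak (left) and with the TATA motif (right), with 95% Wilson intervals, by the tags of the highest cluster, for antisense, gene-start and sense coding loci. Antisense points lie between 79.2% and 86.0% on the left at every count. On the right, the antisense point at 200 tags or more is 13.0%, under the sense coding point of 15.7%.

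The antisense loci themselves differed by the part of the gene. Loci in 3′ untranslated regions had the pyrimidine-purine step in 89.2% and those in coding sequence in 79.7%, a difference of 9.54 points (4.48 to 14.2). They had the TATA motif in 19.3% against 6.95%, a difference of 12.3 points (7.63 to 17.5). Both 3′ untranslated differences exclude 0. The control window was not counted by part of the gene, so how often the motif occurs away from the peak in each part was not tested. Listing in all 4 sets was 71.9% against 74.9%, a difference of −2.97 points (−9.26 to 3.07) that includes 0. Intron loci had the TATA motif in 14.7% and the pyrimidine-purine step in 87 of 116, and were listed in all 4 sets in 54.3%. Among the loci with a TATA motif were those in the 3′ untranslated regions of RPS15A, AT3G27250 and AT5G49440.

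Antisense loci were listed less widely over the sets than gene starts of similar count. The tag count chose these loci, and all classes compared had to reach 25 tags in at least 1 set. In all 4 sets 731 antisense loci (70.8%, 68.0 to 73.5) were listed, against 91.8% of gene-start and 83.4% of sense coding loci. With a highest cluster of 200 tags or more, 82.6% of antisense and 98.8% of gene-start loci were listed in all 4 sets, a difference of −16.2 points (−25.2 to −9.81). The 25-tag level itself was reached in all 4 sets by 215 antisense loci and in 1 set only by 472. Of the 731 loci, 347 (47.5%) had their highest peak at the same base in all 4 sets and 460 (62.9%) within 5 bp.

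Over loci of all counts, antisense clusters were narrower. The highest cluster of a locus had a median width of 25 bp, against 47 bp at gene starts and 51 bp for sense coding loci, and 63 antisense loci (6.10%) were a single base wide, against 0.519% and 0.964%. The classes differ in tag count, and whether widths differ at similar counts was not tested. The highest cluster held 200 tags or more in 12963 of 24485 gene-start, 775 of 4459 sense coding and 92 of 1032 antisense loci. Width divided the antisense loci. The 127 loci of 5 bp or less had a pyrimidine-purine step in 50.4% (41.8 to 58.9) and AG at the peak in 30.7%, and 43 of them were listed in 1 set only. The 905 wider loci had the step in 86.2% (83.8 to 88.3) and AG in 6.85%, and 26 of them were listed in 1 set only. Narrow loci made up 31.0% of 5′ untranslated (9 of 29), 27.6% of intron, 11.2% of coding and 7.19% of 3′ untranslated loci. The exact 50 bases downstream of the start recur elsewhere in the genome for 8 of the 1032 loci.

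Differences between the sets were frequent among the stronger loci. A locus was examined where its highest set had 5 CPM or more, and called where this set and the lowest differed by 4-fold or more on the scale of log2(CPM + 0.5), which understates differences at low levels. Of 137 antisense loci examined, 50 (36.5%, 28.9 to 44.8) were called, against 9.09% of all 15641 loci of 25 tags or more so examined. Loci enter this count through their highest set, and with no minimum level 166 of 1032 antisense loci (16.1%) were called, against 8.63% of all loci. Where the highest set was 5 to 20 CPM, 42 of 120 antisense loci (35.0%) were called, against a background of 11.5%. Altenb-2 lay 4-fold above every other set at 2 of the 137 antisense loci (1.46%, 0.401 to 5.17), an interval that includes its background of 0.441%. Kly-1 did so at 7 (5.11%, 2.50 to 10.2, background 0.448%). Shigu-2 and Vash-1 did so at 6 each (4.38%, 2.02 to 9.23), with backgrounds of 0.428% and 0.735%. Without loci of 5 bp or less, 29 of 116 were called, against 8.69% of all loci wider than 5 bp, and without the Vash-1 set 33 of 120 (27.5%), against 6.14%. With rRNA tags kept in the base of CPM, fewer loci reached 5 CPM and 19 of 57 (33.3%) were called, against 7.81%.

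Called loci were narrower than the others. The 50 called loci had a median width of 14.5 bp, 21 were 5 bp wide or less, 31 (62.0%) had a pyrimidine-purine step, and 26 were unlisted in at least 1 set. The 87 loci under 4-fold had a median width of 69 bp, none was 5 bp wide or less, 80 (92.0%) had the step, and all were listed in every set. An unlisted set at 0 puts any examined locus past 4-fold on this scale, so the split by listing is set by the call itself. Width and base step moved with the range, and their part in it was not tested.

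**Figure D4:**
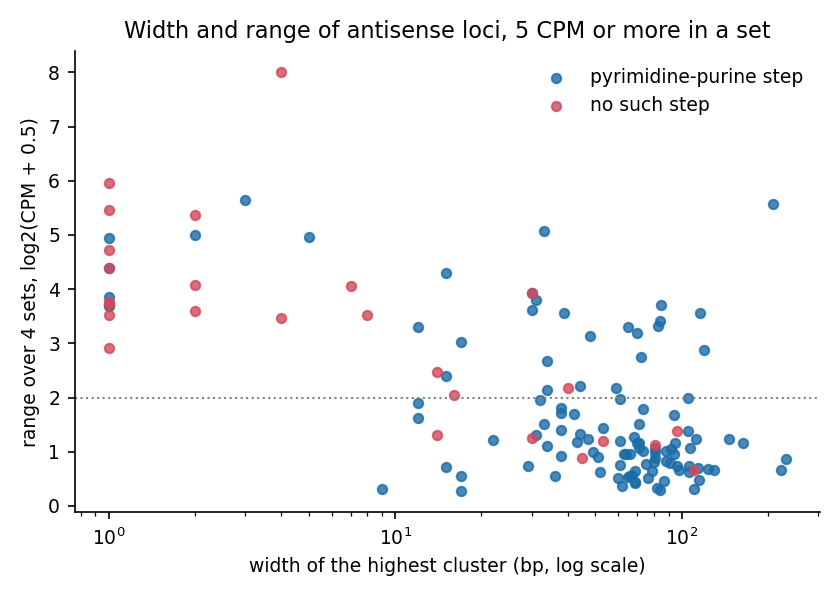
Range over the 4 sets, as the difference of the highest and lowest log2(CPM + 0.5), against the width of the highest cluster in bp (log axis), for the 137 antisense loci of 5 CPM or more in a set. Colours mark the pyrimidine-purine step, and the dotted line is 4-fold. All loci of 5 bp or less lie above the line, and loci under it have a median width of 69 bp.

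The largest range was at dNK, a deoxyribonucleoside kinase gene of nucleoside salvage, with 1.91 CPM in Altenb-2 and 406 in Kly-1, with 1.07 in Shigu-2 and 1.39 in Vash-1. Kly-1 alone was high, at 292 times the pooled value of the other sets (counting interval 244 to 354), and 97.3% of the tags of the highest cluster lay on 1 base of a 4-bp cluster. The sense level at the dNK start was 54.2, 53.0, 60.3 and 52.2 CPM, so the sense strand differed little where the antisense strand differed most. AT5G49440, of uncharacterized product, had 5.74, 151, 2.69 and 5.91 CPM in its 3′ untranslated region, again high in Kly-1 alone, in a cluster 208 bp wide with 15.4% of its tags at the peak. Both were high in Kly-1, one as a single spike and the other as a broad cluster with a TATA motif and a CA step. The sense level of AT5G49440 was 0.887 CPM in Kly-1, and it had no listed sense tags in the other 3 sets.

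AT2G42490, a copper amine oxidase gene, had 30.5 CPM in Vash-1 (748 tags, all on 1 base) and was unlisted in the other sets, while its sense level at the start was 18.1 to 23.8 CPM in every set. AT5G16590, a leucine-rich repeat kinase gene, had 24.4 CPM in Kly-1, only 0.833 in Shigu-2, and was unlisted in the others, in a cluster 3 bp wide. AT3G25240 had 15.1 CPM in Altenb-2 and 21.4 in Vash-1 but 0.205 in Kly-1, and was unlisted in Shigu-2, on a single base after a G. These loci were high in some sets and low or unlisted in others, and nearly all tags of their highest clusters lay on 1 base. CYCA3;2, an A-type cyclin gene, had 0.534 CPM in Altenb-2 and 19.0 in Kly-1, with 21.2 in Shigu-2 and 0.204 in Vash-1, also in a cluster 1 bp wide.

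Some of the called loci were broad. AT3G27250 had 30.8 CPM in Altenb-2 and 10.0 in Kly-1, with 23.5 in Shigu-2 and 4.16 in Vash-1 in a cluster 72 bp wide in its 3′ untranslated region. Its sense level at the start was 18.9, 7.81, 17.5 and 8.03 CPM, so that Altenb-2 and Shigu-2 were the 2 higher sets on both strands. The coding sequence of AT4G14090, a UDP-glycosyltransferase gene, held a locus of 0.712 CPM in Altenb-2 and 13.9 in Kly-1, with 12.03 in Shigu-2 and 3.34 in Vash-1 in a cluster 116 bp wide. A further antisense locus of the same gene had 1.69, 1.058, 3.36 and 0.774 CPM, so the order of the sets was not the same at both.

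At the other end were loci with nearly equal levels in all sets. AT1G34110, a leucine-rich receptor-like kinase gene, had 10.2 CPM in Altenb-2 and 8.94 in Kly-1, with 10.4 in Shigu-2 and 8.60 in Vash-1, a range of 0.27 on the log2 scale. TRFL7, which encodes a protein resembling telomere repeat-binding factors, had 7.52, 5.97, 7.20 and 6.81 CPM. ABCG20, an ABC transporter gene, had 4.50, 5.15, 5.61 and 5.09 CPM in its 3′ untranslated region, with a sense level of at most 0.285 CPM at its start. The sets differed by 1.21 to 1.26 times at these 3 loci.

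Host genes were more highly transcribed than protein-coding genes in general. The sense level at the gene start, from 500 bp upstream to the start codon, had a median of 12.2 CPM over 813 hosts (95% interval of the median 9.98 to 14.3), against 3.41 CPM over 27444 protein-coding genes (3.19 to 3.61). Over the whole gene the medians were 14.98 and 4.41 CPM. At the start 723 hosts (88.9%) had listed tags, against 71.2% of genes, and 51 hosts (6.27%) had none anywhere on their own strand, against 24.9% of genes. Median lengths were 2154 and 2078 bp. The antisense level of a host's loci, summed, was above its sense level over the whole gene in 151 hosts (18.6%). Across the 1032 loci the antisense level and the sense level at the host start had a Spearman correlation of 0.0104, a description over loci that share the same 4 sets. The antisense count chose these loci, so weaker antisense starts are left out. The value therefore does not describe how the strands relate over all genes.

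**Figure D5:**
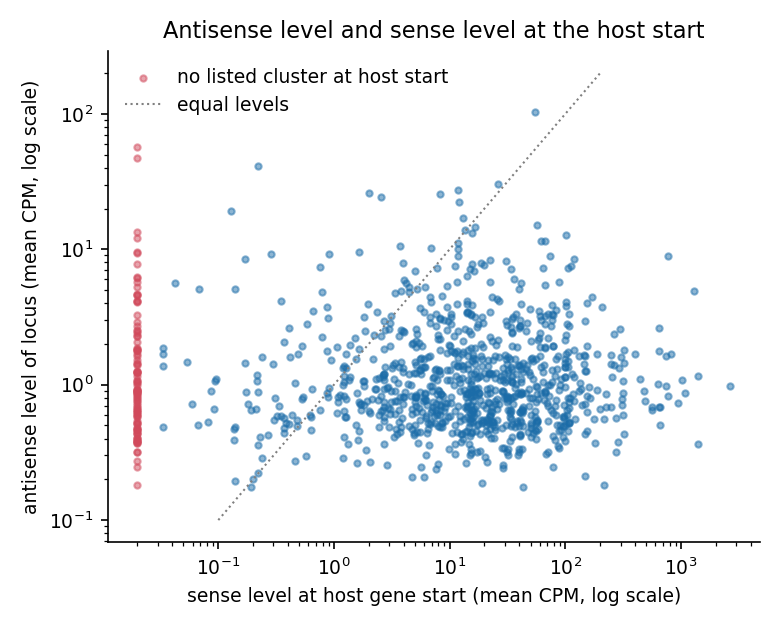
Mean antisense level of each locus against the mean sense level at the host's start, both in CPM on log axes, with the line of equal levels. Points at the left edge are loci whose host has no listed cluster at its start. The cloud of these loci, all chosen by their antisense count, shows no slope, and loci such as PDX1.1 stand high at the left edge.

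Sense range was compared in the hosts of the loci examined for range. Of the 29 hosts of called loci that had 5 CPM or more at their start in a set, 7 (24.1%) also had a sense range of 4-fold or more. Among the hosts of loci under 4-fold it was 4 of 57 (7.02%), and among all protein-coding genes 943 of 13568 (6.95%). In the other 22 of the 29 the sense range stayed under 4-fold.

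Glycosyltransferases attach sugars to other molecules. The product words counted here were picked after the hosts had been seen, so no test is given and the counts are a description: 26 of the 813 hosts (3.20%) had a glycosyltransferase product, against 189 of 27444 genes (0.689%). Their 40 loci lay in coding sequence in 31 cases (77.5%, against 54.4% of all antisense loci). In the last 3 of 10 equal parts of the gene there were 29 (72.5% against 61.7%). A pyrimidine-purine step stood at 38 (95% against 81.8%). None of the 40 had a second exact copy of its first bases, against 8 of all 1032 antisense loci. UGT84A3 carried 14.96 CPM antisense in Altenb-2 and 8.80 in Kly-1, with 9.91 in Shigu-2 and 12.6 in Vash-1, against a mean sense level of 66.6 CPM at its start. UGT71C5 carried 10.2, 7.88, 6.98 and 8.07 CPM at its highest locus, one of 3. UGT71B1 and UGT73B2 carried 4 loci each. Leucine-rich repeat products had 25 hosts (3.08% against 1.54% of genes), protein kinases 55 (6.77% against 5.06%) and cytochromes P450 16 (1.97% against 0.904%). The remaining product counted, uncharacterized protein, went the other way, with 71 hosts (8.73% against 10.9% of genes).

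Of all protein-coding genes 2.96% were hosts. In the lists of cold, light and clock genes, 4 of 45 (8.89%) were, too few to read against that share. Among 14 cold regulators 2 were hosts (ERF6 and MYB73, with 4 loci), among 11 cold-induced effector genes 1 (ERD10, with 2), among 9 light-stress genes 1 (ELIP1, with 1), and among 11 clock genes 0. None of 8 genes with known antisense transcripts and none of 9 flowering genes of the MADS type was a host, and lists of this size are too short to set 0 against the share over all genes. The antisense RNA of FLC is annotated as a gene on its own strand, so the rule leaves it out.

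ERD10, a dehydrin that protects cells from water loss and cold, had 9.62 CPM antisense in Altenb-2 and 9.93 in Kly-1, with 10.6 in Shigu-2 and 5.26 in Vash-1 in its 3′ untranslated region. Its sense level at the start was 610, 542, 1232 and 692 CPM, so antisense tags were few beside sense tags in every set. ELIP1, an early light-induced protein of the chloroplast, had 0.445, 1.43, 1.45 and 0.978 CPM antisense against 505 to 1744 CPM sense at its start. MYB73, a repressor-type MYB factor, had 3 antisense loci, the highest with 3.74, 3.41, 4.22 and 2.04 CPM. ERF6, an ethylene-responsive factor, had 1.20 CPM antisense in Altenb-2, 0.204 in Vash-1 and 0.188 in Shigu-2, and was unlisted in Kly-1. Its sense level was lowest in Shigu-2, at 9.27 CPM, against 59.0 to 89.0 CPM in the other sets.

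Among the 5 intron loci of highest mean level were those of PAD4, TDT and AFP1. PAD4, which promotes defence signalling with EDS1, had 7.30 CPM antisense in Altenb-2 and 7.10 in Kly-1, with 10.5 in Shigu-2 and 6.93 in Vash-1, and a sense level of 2.23, 4.61, 6.12 and 2.77 CPM at its start. The antisense level exceeded the sense level in all 4 sets, and Shigu-2 was highest on both strands. TDT, the malate carrier of the vacuole membrane, had 11.5, 8.53, 9.86 and 4.08 CPM antisense and 85.5 to 143.8 CPM sense. AFP1, which binds the abscisic acid response factor ABI5, had 27.6, 16.3, 20.8 and 24.6 CPM antisense in an intron and 20.1, 6.31, 16.3 and 5.38 CPM sense at its start.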

How the data were processed

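The authors deposited CAGE tag counts per cluster, unnormalized, in 4 pooled sets. The share of a cluster's tags at its peak is a deposited fraction. The submitters' processing notes name STAR 2.7.9a; the build and the way clusters were called were not given in the sources used here. All cluster ends fit inside the TAIR10.1 chromosomes, where 70.8% of peaks had a pyrimidine before a purine, and 19.99% of positions 50 bp away did. Clusters within 5000 bp of nuclear rRNA genes (405) were left out, since their tags differ between sets, and the remaining tags (22462179 to 37230794 per set) were the base of CPM. Loci were built, classed and counted in python 3.11.15 with pandas 2.3.3, numpy 2.4.6 and scipy 1.17.1. The member rule, the joins, the Newcombe interval and the range call were tested on simulated data, and the other steps were not. The range call was simulated only at a mean of 10 CPM or more, with changes larger than 4-fold. Wilson, Newcombe and binomial intervals are at 95% and cover counting of loci or tags only; tags without molecular identifiers are not independent molecules, and accession genomes were not used. Members and lists were chosen with earlier results of these data known. Loci were named by level (15 highest means), by largest and smallest range, by introns and by the gene lists; UGT84A3, UGT71C5, UGT71B1, UGT73B2, AT4G14090, CYP81H1, NRT2.7, CESA4 and AT4G24410 were named after their values were seen. The tests of treatment planned on library counts could not be made.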

Additional observations from a re-analysis of the deposited data

How the results depend on the processing

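Over 98 repeats of 10 results under other settings, 83 were counted as unchanged. For differences and ratios between shares this meant the same direction and the same side of no difference. For numbers of loci it meant a value within a set factor of the main one. For the sense level and the share listed in all 4 sets it meant a value inside the main interval. The 15 others follow, together with some repeats from the 83, such as the initiator differences. The cause of the changes was not tested. At a minimum of 50 tags there were 478 loci, 78.5% of them listed in all 4 sets, the TATA share over sense coding loci was 2.701 points (−0.236 to 6.14), and the coding share less its share of length turned to −0.421 points. At 10 tags there were 3703 loci, 34.3% listed in all 4 sets, the coding difference was 5.95 points (4.36 to 7.53), and the initiator difference from gene starts was −19.3 points. For loci wider than 5 bp the latter was −3.41 points. The count of loci with a 4-fold range was 19 of 57 with CPM over all tags (33.3%, against 7.81% of all loci), 166 of 1032 with no minimum CPM (16.1% against 8.63%) and 21 of 58 at 10 CPM (36.2% against 7.74%). It was 33 of 120 without the Vash-1 set (27.5% against 6.14%) and 29 of 116 for loci wider than 5 bp, and of the 905 antisense loci wider than 5 bp 77.1% were listed in every set. The median sense level of hosts was 6.28 CPM with all tags as base and 14.98 CPM over the whole gene. The 3′ untranslated ratio ran from 2.63 to 3.54. Scaling by the median of ratios moved levels by −0.10 to 0.13 on the log2 scale and gave 56 loci with a 4-fold range. Loci wider than 5 bp, unlisted loci set to 4 tags, the whole-gene sense level and every repeat of the 3′ untranslated and sense coding results were chosen after seeing the data. No paired analysis was possible because the table holds 1 pool per set with no replicate or treatment column; for the same reason edgeR, DESeq2, libraries left out in turn and other filters on the treatment effect were not run. Depth limits a set to clusters of 5 tags or more, so an unlisted locus may hold up to 4.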
